A study of Mus musculus with 7 samples.

Results

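The S100 genes encode small calcium-binding proteins, most of them clustered on mouse chromosome 3 beside the epidermal differentiation genes. The 10 genes described here, *S100a3*, *S100a4*, *S100a6*, *S100a7a*, *S100a8*, *S100a9*, *S100a10*, *S100a11*, *S100a14* and *S100a16*, were chosen by symbol from the 23284 gene symbols listed for each papilloma. All 10 had an estimate in every papilloma, and all 10 were among the 12299 genes tested. *S100a8* and *S100a9* were higher in the TG 1 and TG 2 papillomas than in any CTR papilloma, but not in TG 3, and no S100 gene passed the adjusted test. The other 8 S100 genes had overlapping values in the groups, and their differences lay between -0.26 and 0.21 on the log2 scale.

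S100 proteins bind calcium through paired EF hands and usually act as dimers. Inside the cell they bind partners such as annexins and cytoskeletal proteins, and some are released and signal through receptors such as TLR4 and the receptor for advanced glycation end products. In skin, S100A8 and S100A9 are scarce in resting epidermis and are known to become abundant in wounded, psoriatic or tumor-bearing epidermis, while they are also major cytosolic proteins of neutrophils.

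RNA-seq was done on papillomas, benign skin tumors, of 4 CTR and 3 TG mice on a C57Bl/6 background, with 1 library for each mouse. Every mouse carried the *tetO-Nanog* allele at the collagen 1a1 locus and drank DOX (2 mg/ml) throughout. Every mouse received the mutagen DMBA and then repeated TPA, a phorbol ester that promotes tumors, and treatment began when the mice were 8 to 10 weeks old. Only TG mice carried *K5-rtTA*, in which the bovine keratin 5 promoter drives the transactivator in basal keratinocytes, so the allele could be turned on there and not by design in dermal or immune cells. TPA was given for 15 weeks and mice were then observed for a further 15 weeks, or killed earlier if a tumor grew too large. Papillomas were whole tissue, and the day on which each was taken is not given in the sources used here. Fewer cells of a type and less RNA per cell cannot be told apart in such bulk samples. Values are FPKM, fragments scaled to transcript length and to the mapped fragments of the library. This scaling does not correct for differences in the make-up of the libraries. The median over gene symbols was 1.14 FPKM in TG 3 and 0.539 to 0.673 FPKM in the other papillomas. Levels in TG 3 are therefore less directly comparable with the rest.

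*Nanog*, the induced gene, was 2.70, 2.84, 12.7 and 3.34 FPKM in CTR 1 to CTR 4 and 36.9, 57.4 and 66.9 FPKM in TG 1 to TG 3. Its log2 difference was 3.45 (limma, Benjamini-Hochberg adjusted p = 0.400). Between 10075778 and 15710864 reads on genes were implied by the width of the Cufflinks intervals, with CTR 3 and TG 1 deeper than the others. Basal keratinocyte genes were abundant in every papilloma (summed 6660 to 12963 FPKM over 7 genes), which fits the skin label. TG 3 stood apart. It had the highest value for 41.1% of the tested genes, and its correlations with the other papillomas (0.903 to 0.937, across genes, which are not independent replicates) were below those among the other 6 (0.945 to 0.977). Skeletal muscle genes summed to 709.9 FPKM in TG 3 and to between 1.65 and 5.57 elsewhere, and fibroblast genes to 850.03 FPKM in TG 3 and to between 99.0 and 184 elsewhere. Differences of the S100 genes are therefore given with and without TG 3.

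The S100 genes together made up between 0.935% and 1.86% of all FPKM in a papilloma. They summed to 3262, 5927, 4936 and 4711 FPKM in CTR 1 to CTR 4, and to 7619, 6748 and 4584 FPKM in TG 1 to TG 3. The sums in TG 1 and TG 2 exceeded those of all CTR papillomas, and TG 3 lay within the CTR range. *S100a11* was the most abundant S100 gene by mean level and ranked 19 among the 12299 tested genes, followed by *S100a8* at 45, *S100a9* at 56 and *S100a6* at 96. *S100a16* ranked 188, *S100a14* 190 and *S100a10* 263. *S100a7a* ranked 679 and *S100a4* 1025. *S100a3* was the scarcest, at rank 8270 and with only 15 to 72 implied reads in a papilloma, so its values carry a larger counting error than those of the other S100 genes, which had at least 137.

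**Figure D1:**
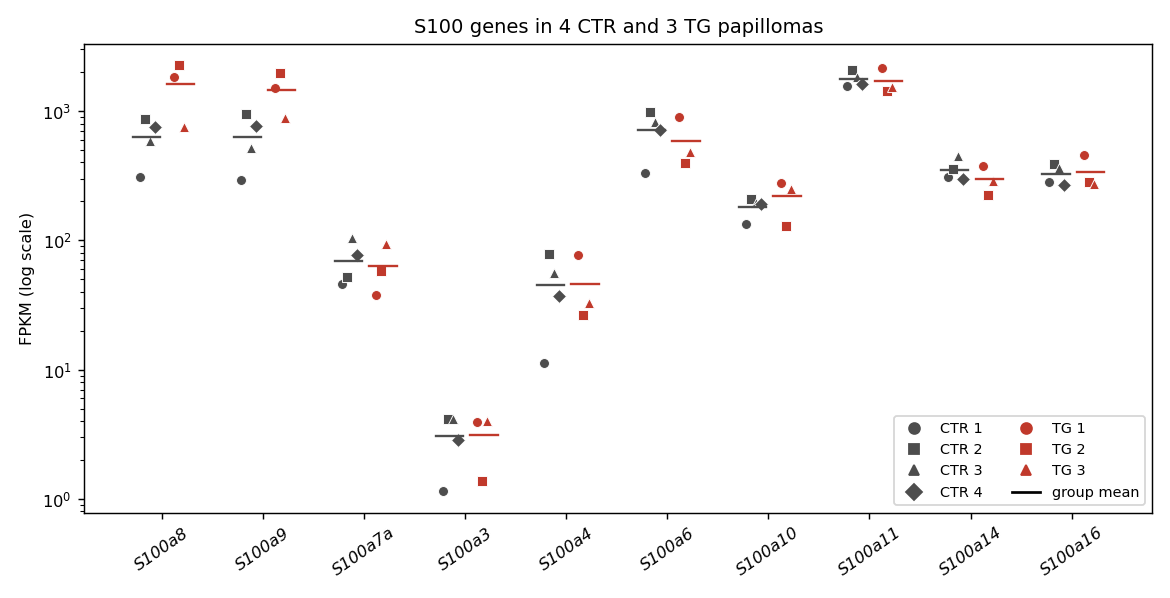
FPKM (vertical log axis) of the 10 S100 genes in each papilloma, with CTR in grey, TG in red, the replicate number as the symbol and a line at each group mean. TG 1 and TG 2 lie above all 4 CTR papillomas for S100a8 and S100a9, while the groups overlap for the other 8 genes.

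*S100a8* and *S100a9* encode the subunits of calprotectin, a zinc- and manganese-binding antimicrobial protein that also acts as an alarm signal. *S100a8* was 307, 859.8, 585 and 755 FPKM in CTR 1 to CTR 4, and 1846, 2257 and 752 FPKM in TG 1 to TG 3. TG 1 and TG 2 were more than 2 times the highest CTR value, while TG 3 was just below CTR 4. Mean levels were 627 ± 241 FPKM (SD, n = 4) in CTR and 1618 ± 778 FPKM (SD, n = 3) in TG papillomas, a ratio of 2.58. *S100a9* was 294, 945, 517 and 762 FPKM in CTR 1 to CTR 4, and 1509.9, 1955 and 887 FPKM in TG 1 to TG 3. Here too TG 1 and TG 2 exceeded every CTR papilloma, and TG 3 lay between CTR 4 and CTR 2. Its mean levels were 629.5 ± 285 FPKM (SD, n = 4) and 1451 ± 536 FPKM (SD, n = 3), a ratio of 2.30.

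On the log2(FPKM + 0.5) scale, on which limma (linear models with moderated variances) was run across all tested genes, *S100a8* differed by 1.32 (SE 0.46, 95% interval 0.27 to 2.38). *S100a9* differed by 1.26 (SE 0.43, 95% interval 0.28 to 2.24). Neither passed the Benjamini-Hochberg threshold of 0.05 (adjusted p = 0.687 for each from limma). Unadjusted limma p-values were 0.0194 for *S100a8* and 0.0175 for *S100a9*. The 2-sided exact permutation test of the group means gave p = 0.0857 for each, where 0.0286 is the smallest p that the 35 splits of the papillomas allow. TG exceeded CTR in 10 of 12 pairs of papillomas for *S100a8* and in 11 of 12 for *S100a9*.

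Without TG 3, the log2 difference was 1.80 for *S100a8* (95% interval 0.88 to 2.72, adjusted p = 0.143 from limma) and 1.58 for *S100a9* (95% interval 0.57 to 2.58, adjusted p = 0.243 from limma). Both stayed short of the threshold. In the comparison of these 4 CTR and 2 TG papillomas, 17 of 11990 genes passed (0.142%), of which 0 were S100 genes. At an unadjusted p under 0.05, 2 of 10 S100 genes were higher without TG 3, where 5.23% of tested genes were, and 0 of 10 were lower, where 4.35% were. Leaving out TG 1 or TG 2 in place of TG 3 gave smaller differences, and the lowest over the 7 papillomas left out in turn were 1.01 for *S100a8* and 0.94 for *S100a9*. Within the libraries of lower depth (3 CTR and 2 TG papillomas) the differences were 1.16 and 1.14 (adjusted p = 0.799 for each from limma), while each group has 1 deeper library, which allows no test.

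The 2 subunits kept nearly equal levels in every papilloma. The *S100a8* to *S100a9* ratio was 1.02 ± 0.0939 (SD, n = 4) in CTR and 1.07 ± 0.200 (SD, n = 3) in TG papillomas, with a range of 0.847 in TG 3 to 1.22 in TG 1. Their share of all S100 FPKM was 18.4%, 30.5%, 22.3% and 32.2% in CTR 1 to CTR 4, and 44.0%, 62.4% and 35.8% in TG 1 to TG 3. All 3 TG shares exceeded the CTR shares. Their summed FPKM did not separate the groups, with 1639 FPKM in TG 3 and 1805 FPKM in CTR 2. *S100a11*, the leading S100 transcript in every CTR papilloma, was exceeded by *S100a8* and by *S100a9* in TG 2 alone.

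The 2 genes are neighbors on chromosome 3 (GRCm38) in opposite orientation. *S100a8* runs from 90669071 to 90670034 on the plus strand and *S100a9* from 90692633 to 90695691 on the minus strand, with 22.6 kb between them. Their upstream sequences are shown because of their like profiles. They are from RefSeq (GRCm38.p6), 5′ to 3′ on each gene's strand, cut where annotated exons begin, and capitals mark each match on either strand to TTNNGNAA, a pattern bound by C/EBP factors.
S100a8, plus strand, chr3:90668821-90668977: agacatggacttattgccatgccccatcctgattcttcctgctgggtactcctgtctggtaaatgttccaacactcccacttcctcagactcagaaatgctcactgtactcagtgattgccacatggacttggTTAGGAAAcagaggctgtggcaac
S100a9, minus strand, chr3:90695722-90695971: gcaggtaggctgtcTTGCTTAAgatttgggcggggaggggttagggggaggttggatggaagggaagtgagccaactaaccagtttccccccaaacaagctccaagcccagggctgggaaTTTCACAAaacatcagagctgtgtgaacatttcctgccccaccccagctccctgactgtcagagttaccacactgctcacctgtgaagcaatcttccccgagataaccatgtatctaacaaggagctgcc
The pattern occurred in 36.8% of 32851 promoter windows of the table, so these matches are common and are a description only. Windows were given for 8 of the S100 genes, of which 3 held it (*S100a3*, *S100a8* and *S100a9*). TATAAA was in 12.4% of all windows and in those of *S100a3*, *S100a4* and *S100a8*.

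*S100a7a* encodes the mouse relative of psoriasin, an antimicrobial and chemotactic protein of inflamed epidermis. It lies from 90654302 to 90658130, between *S100a6* and *S100a8*. It was 46.1, 51.7, 104 and 77.3 FPKM in CTR 1 to CTR 4 and 37.9, 58.1 and 93.9 FPKM in TG 1 to TG 3. The lowest value was in TG 1 and the highest in CTR 3, so the TG values nearly spanned the CTR range. The log2 difference was -0.16 (SE 0.36, 95% interval -0.98 to 0.66, adjusted p = 0.968 from limma). Only 10.9 kb separate it from *S100a8*, yet *S100a7a* and *S100a8* were the farthest apart in profile of the 45 pairs of S100 genes. Their root mean square distance was 1.15 on the log2 scale, after each gene was centered on its own mean. The values were not scaled, so this distance grows with the spread of a gene.

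*S100a11* and *S100a10* lie 2825 kb from the other 8 genes and 28.8 kb from each other. S100A11 binds annexin A1 and takes part in keratinocyte growth control, and S100A10 forms a complex with annexin A2 at the plasma membrane. *S100a11* was 1548, 2062, 1848 and 1611 FPKM in CTR 1 to CTR 4 and 2135, 1416 and 1526 FPKM in TG 1 to TG 3. TG 1 was the highest and TG 2 the lowest of all 7, with every CTR papilloma in between. Its SD on the log2 scale over CTR papillomas was 0.19, higher than that of only 31.4% of tested genes. The log2 difference was -0.077 (95% interval -0.65 to 0.50), so a change of the size seen for *S100a8* lay outside its interval.

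*S100a10* was 134, 208, 193 and 192 FPKM in CTR 1 to CTR 4 and 279.7, 128 and 249 FPKM in TG 1 to TG 3. TG 1 and TG 3 exceeded every CTR papilloma, and TG 2, the highest for *S100a8*, was the lowest here. The log2 difference was 0.21 (SE 0.29, 95% interval -0.46 to 0.88, adjusted p = 0.942 from limma). Its ratio to *Anxa2* was 0.256 ± 0.0159 (SD, n = 4) in CTR papillomas, a narrow range, against 0.388, 0.231 and 0.280 in TG 1 to TG 3. The ratio of *S100a11* to *Anxa1* was 0.983 ± 0.181 (SD, n = 4) in CTR papillomas, and 1.48, 1.07 and 0.402 in TG 1 to TG 3. The low ratio in TG 3 came with 3799 FPKM of *Anxa1* there. *Anxa1* was 1439 and 1325 FPKM in TG 1 and TG 2, below the 1629 to 2173 FPKM of CTR papillomas.

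The upstream sequence of *S100a11* is shown as that of the most abundant S100 gene. Capitals mark the matches to TGANTCA, the element that binds AP-1 and through which phorbol esters act on many promoters.
S100a11, plus strand, chr3:93520246-93520487: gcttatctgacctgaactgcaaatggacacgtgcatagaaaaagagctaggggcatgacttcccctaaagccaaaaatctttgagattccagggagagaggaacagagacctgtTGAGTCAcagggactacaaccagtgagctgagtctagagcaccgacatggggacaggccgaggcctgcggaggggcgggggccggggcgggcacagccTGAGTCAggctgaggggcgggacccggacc
The 2 matches lie 130 to 136 and 32 to 38 bases before the RefSeq start. The pattern, read on both strands, was in 6.75% of all windows and in those of 2 S100 genes, *S100a11* and *S100a16*. These matches are a description only. Every mouse received TPA, so a part of TPA or AP-1 in the *S100a11* level was not tested.

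*S100a3*, *S100a4* and *S100a6* lie close together, with 1.07 kb between *S100a3* and *S100a4* and 6.85 kb, in which *S100a5* lies, between *S100a4* and *S100a6*. S100A4 binds non-muscle myosin and is known from motile and mesenchymal cells, S100A6 (calcyclin) is found in proliferating epithelial and stromal cells, and S100A3 is best known from the hair cuticle. *S100a4* was 11.3, 77.9, 55.5 and 36.9 FPKM in CTR 1 to CTR 4 and 77.5, 26.5 and 33.0 FPKM in TG 1 to TG 3. All TG values lay inside the CTR range. Group means were nearly equal, 45.4 ± 28.2 FPKM (SD, n = 4) in CTR and 45.6 ± 27.8 FPKM (SD, n = 3) in TG papillomas. The CTR papillomas alone differed 6.86-fold, and the SD of 1.19 on the log2 scale exceeded that of 99.2% of tested genes.

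*S100a6* was 331, 976, 822 and 709 FPKM in CTR 1 to CTR 4 and 892, 398 and 478 FPKM in TG 1 to TG 3. The 7 papillomas stood in the same order as for *S100a4*, with CTR 1 lowest, CTR 2 highest and TG 1 second. Its log2 difference was -0.25 (SE 0.42, 95% interval -1.20 to 0.70, adjusted p = 0.955 from limma). *S100a3* was 1.15, 4.13, 4.15 and 2.87 FPKM in CTR 1 to CTR 4 and 3.96, 1.38 and 4.03 FPKM in TG 1 to TG 3. CTR 1 and TG 2 were low and the other 5 papillomas were alike. In the GENCODE annotation *Gm42674* overlaps *S100a3* and *S100a4*, and *Gm23464* and *S100a2* overlap its longer *S100a3* gene model. The values here are for a shorter *S100a3* locus (90600215 to 90602702). *S100a2* lies outside that locus, and no other gene with a value here overlapped *S100a3* or *S100a4*. Whether the counting used strand is not given in the sources used here, so with *Gm42674* the values of both are less certain.

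*S100a14* and *S100a16* encode epithelial S100 proteins, and they lie 12.4 kb apart at the other end of the cluster. *S100a14* was 309, 356, 446 and 296 FPKM in CTR 1 to CTR 4 and 379, 222 and 288 FPKM in TG 1 to TG 3. TG 2 and TG 3 were the lowest of the 7 papillomas, and TG 1 was second to CTR 3. The log2 difference was -0.26 (SE 0.24, 95% interval -0.81 to 0.29, adjusted p = 0.888 from limma), the lowest of the 10. *S100a16* was 283, 387, 361 and 269 FPKM in CTR 1 to CTR 4 and 458, 284 and 272 FPKM in TG 1 to TG 3. TG 1 was highest, and TG 2 and TG 3 lay within the CTR range. The log2 difference was 0.034 (SE 0.25, 95% interval -0.53 to 0.60, adjusted p = 0.993 from limma).

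**Figure D2:**
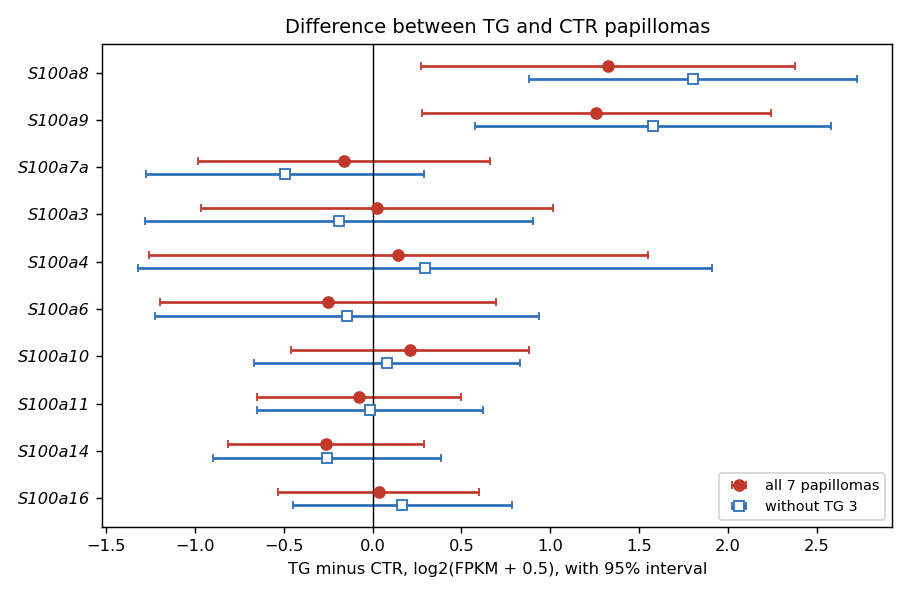
TG minus CTR difference of each S100 gene in log2(FPKM + 0.5) (horizontal axis) with its 95% interval from limma, for all 7 papillomas (red circles) and without TG 3 (blue squares). The intervals of S100a8 and S100a9 lie above 0 in both fits, and those of the other 8 genes include 0 in both.

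In all, 0 of 10 S100 genes passed at an adjusted p under 0.05, and neither did any of the 12299 tested genes (0%). At an unadjusted p under 0.05, 2 of 10 were higher in TG papillomas, where 4.86% of tested genes were, and 0 of 10 were lower, where 1.96% were (6.82% in either direction). The split over all tested genes, 598 higher and 241 lower, depended on scaling, with 515 and 418 under upper-quartile scaling and 403 and 551 under quantile normalization. No S100 gene separated the groups completely, against 7.16% of tested genes (4.93% higher and 2.23% lower in every TG papilloma). TG 1 and TG 2 exceeded every CTR papilloma for 2 of 10 S100 genes, against 8.94% of tested genes. The median log2 difference of the 10 was 0.029, near the 0.061 of all tested genes, and 6 of the 10 differences were positive, against 60% of all. Without TG 3, *S100a3* turned from 0.025 to -0.19, and *S100a7a* went from -0.16 to -0.49. *S100a4* was 0.30, *S100a6* -0.14, *S100a10* 0.081, *S100a11* -0.014, *S100a14* -0.26 and *S100a16* 0.17 without it, and the intervals of all 8 included 0. The counts called are small and describe the 10 genes and do not set them apart from the rest.

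The spread among CTR papillomas was wide for *S100a3*, *S100a4*, *S100a6*, *S100a8* and *S100a9*, whose SDs exceeded those of between 95.5% and 99.2% of tested genes. CTR 1 had the lowest of all 7 values for these 5, while 14.2% of tested genes were lowest there. In these 5 genes CTR 1 lay between -1.66 and -0.93 log2 units from the CTR mean. For *S100a7a* and *S100a10* CTR 1 lay -0.52 and -0.42 from the CTR mean, and for *S100a11*, *S100a14* and *S100a16* between -0.18 and -0.17. It was thus below that mean for all 10 S100 genes. TG 3, highest for 41.1% of tested genes, was highest for 0 of the 10 S100 genes. Without CTR 1, *S100a8* differed by 1.01 and *S100a9* by 0.94 (adjusted p = 0.941 for each from limma).

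**Figure D3:**
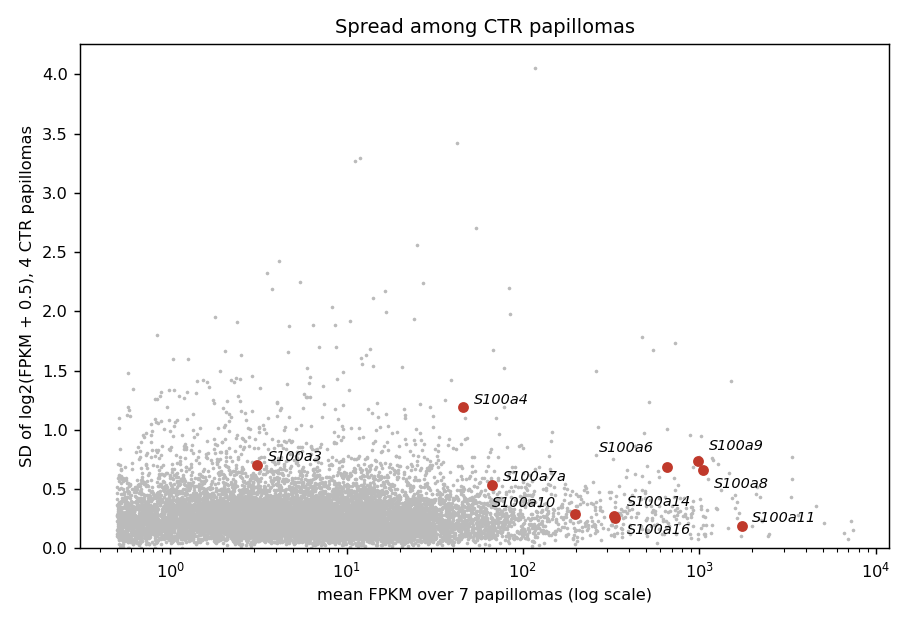
SD of log2(FPKM + 0.5) over the 4 CTR papillomas (vertical axis) against mean FPKM over all 7 (horizontal log axis) for the 12299 tested genes (grey) and the S100 genes (red). S100a4 has the widest spread of the 10 (1.19) and S100a11, the most abundant, the narrowest (0.19).

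Within the family, profiles were compared by the root mean square distance of centered log2 values over the 7 papillomas. The values were not scaled by spread, so genes with little spread lie close together by this measure. The closest of the 45 pairs was *S100a11* with *S100a16* (0.110), which are not neighbors. The next were *S100a8* with *S100a9* (0.178) and *S100a11* with *S100a14* (0.180), against a median of 0.662 over all pairs. Among 6696 genes outside the family with a mean of at least 5 FPKM, the profile nearest to *S100a8* was that of *Clu* (distance 0.186), then *Slc37a2* (0.236) and *Rnase4* (0.256). *Clu* was also the nearest to *S100a9* (0.147), ahead of *S100a8* itself, followed by *Rnase4* (0.220) and *Slco3a1* (0.277). *Clu* was 7.37, 23.2, 13.02 and 18.4 FPKM in CTR 1 to CTR 4 and 32.2, 52.3 and 17.5 FPKM in TG 1 to TG 3, which ordered the papillomas as *S100a8* did. Among the other S100 genes the nearest was *Ly6a* for *S100a10* (0.0992) and *S100a3* (0.221), and *Nudt22* for *S100a6* (0.176) and *S100a4* (0.411). It was *Trappc4* for *S100a11* (0.0425), *Chchd2* for *S100a16* (0.0646) and *Nlrp10* for *S100a7a* (0.217).

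Of 9 other S100 genes listed, 7 were measured and 3 reached the level for testing, of which 0 passed. *S100a1* was 3.38 to 9.43 FPKM in CTR and 5.88 to 10.1 FPKM in TG papillomas. *S100a13*, its neighbor on the opposite strand 104 bases away, was 2.83 to 9.05 and 4.62 to 9.33 FPKM. The ratio of these neighbors stayed between 0.924 and 1.27. *S100b*, the glial S100 gene, did not exceed 0.340 FPKM in any papilloma.

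The S100-fused type proteins carry an S100 domain at the start of a long repeat protein of the cornified layer. Of 7 listed, 6 were tested and 0 passed the adjusted test, with a median log2 difference of 0.84 against 0.061 over all tested genes. *Hrnr* (hornerin) was 17.6 to 33.6 FPKM in CTR papillomas and 52.1, 102 and 29.7 FPKM in TG 1 to TG 3 (log2 difference 0.98, adjusted p = 0.707 from limma). As with *S100a8*, TG 1 and TG 2 were above every CTR papilloma and TG 3 was within their range. *Crnn* (cornulin) was 1.10 to 4.89 FPKM in CTR papillomas and 4.32, 6.27 and 7.61 FPKM in TG 1 to TG 3 (log2 difference 1.19, adjusted p = 0.653 from limma). The most abundant, *Rptn* (repetin), was 405 to 514 FPKM in CTR papillomas and 356, 876 and 407 FPKM in TG 1 to TG 3.

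Of 12 partners, receptors and modifying enzymes of S100 proteins, 11 were tested, all 11 differences were positive (60% over all tested genes), and 0 passed the adjusted test. TG 3 had the highest value for 7 of the 12. In both TG 1 and TG 2, 4 of the 12 lay above the CTR range (8.94% of tested genes), and 2, *Anxa1* and *Tlr4*, lay below it. The positive differences of *Anxa1* and *Tlr4* thus came from TG 3. Among receptors of released S100A8 and S100A9, *Tlr4* was 1.42 to 1.85 FPKM in CTR papillomas and 1.36, 1.04 and 3.36 FPKM in TG 1 to TG 3. *Ly96*, which encodes the TLR4 co-receptor MD-2, was 2.04 to 3.49 FPKM in CTR papillomas and 4.69, 6.70 and 4.83 FPKM in TG 1 to TG 3. All TG papillomas lay above the CTR range for *Ly96* (log2 difference 0.83, adjusted p = 0.564 from limma). The receptor gene *Ager* stayed at or below 0.633 FPKM and was not tested, and *Bsg* (basigin) was 104 to 132 FPKM in CTR and 116 to 171 FPKM in TG papillomas. Among annexins, *Anxa11* was 12.4 to 20.2 FPKM in CTR and 24.1 to 25.1 FPKM in TG papillomas (log2 difference 0.67, adjusted p = 0.587 from limma). *Casp14*, a protease of the cornifying layer, was 42.8 to 97.2 FPKM in CTR papillomas and 224, 266 and 17.0 FPKM in TG 1 to TG 3. *Padi3*, the deiminase that modifies S100A3, was 0.326 to 6.92 FPKM in CTR papillomas and 7.15, 2.59 and 12.6 FPKM in TG 1 to TG 3.

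Neutrophils hold much S100A8 and S100A9, and neutrophil genes were read in the same papillomas. Of 20 listed, 19 were measured, 13 were highest in TG 3, and 11 stayed under 0.5 FPKM in each of the other 6 papillomas. The list summed to between 13.7 and 58.3 FPKM in CTR papillomas and to 48.7, 41.0 and 533 FPKM in TG 1 to TG 3. *Csf3r*, the granulocyte colony-stimulating factor receptor, was 0.265 to 0.7497 FPKM in CTR papillomas, 0.505 in TG 1 and 0.562 in TG 2, but 17.0 FPKM in TG 3. Granule genes of immature neutrophils (*Ngp*, *Camp*, *Elane* and *Mpo*) were at or below 0.152 FPKM everywhere. In TG 1 and TG 2, the papillomas with the most *S100a8* and *S100a9*, 11 of the 19 genes lay within the CTR range in both and 3 lay above it in both. These 3 were *Lcn2*, *Trem1* (0.362 and 0.428 FPKM, against at most 0.262 in CTR papillomas) and *Cd177* (0.0473 and 0.0478 FPKM, against at most 0.0325). Among the 11, *Ngp*, *Camp* and *Mpo* were near 0 throughout, so their place within the range says little. The sums above include *Ltf* (lactoferrin), at 34.2 FPKM in CTR 2 and 341 FPKM in TG 3, and *Mmp9*, at 29.2 FPKM in CTR 4. *Ltf* and *Mmp9* were left out after their values were seen. The other 17 genes then summed to between 12.5 and 22.1 FPKM in CTR papillomas. In TG 1 to TG 3 they summed to 42.1, 32.8 and 181 FPKM, above the CTR range in all 3. *Lcn2*, kept among the 17, was the largest of them in TG 1 and TG 2, at 26.4 and 14.8 FPKM. The sums of TG 1 and TG 2 therefore depend on that gene, and no sum without it was made. *Cxcr2* was 4.84 to 9.16 FPKM in CTR and 8.71 to 11.1 FPKM in TG papillomas. Its log2 difference was 0.70 (unadjusted p = 0.0155 and adjusted p = 0.686 from limma). *Lcn2*, which is on the list and is also made by keratinocytes, was 2.14 to 10.4 FPKM in CTR papillomas and 26.4, 14.8 and 25.8 FPKM in TG 1 to TG 3, above every CTR value in all 3 (log2 difference 2.28, adjusted p = 0.538 from limma). The part of neutrophil RNA in the *S100a8* and *S100a9* values was not tested.

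Among differentiating keratinocyte genes 0 of 10 passed the adjusted test, with a median log2 difference of 0.051. *Krt1* was 187 to 807 FPKM in CTR papillomas and 1517, 3309 and 133 FPKM in TG 1 to TG 3. *Krt10* was 917 to 1440.3 FPKM in CTR papillomas and 3150.1, 3133 and 181 FPKM in TG 1 to TG 3. *Ivl* (involucrin) was 17.7 to 26.8 FPKM in CTR papillomas and 159, 108 and 36.4 FPKM in TG 1 to TG 3 (log2 difference 2.01, adjusted p = 0.538 from limma). *Krtdap*, the most abundant of the list, had a log2 difference of -0.49. It was 3841 to 6890 FPKM in CTR papillomas and 4770, 3666 and 2689 FPKM in TG 1 to TG 3. Among the 10 differences 6 were positive and 4 negative. Of the 10 genes, 4 were above the CTR range in both TG 1 and TG 2 (*Krt1*, *Krt10*, *Ivl* and *Dsg1a*), against 8.94% of tested genes. Another 3 were within it in both (*Lor*, *Sbsn* and *Tgm1*), and the other 3 lay differently in the 2 papillomas. The list summed to between 8384 and 12560 FPKM in CTR papillomas, and to 13493, 12700 and 5009 FPKM in TG 1 to TG 3. The part of these genes in the *S100a8* and *S100a9* values was not tested. Relative to *Krt14*, a basal keratinocyte keratin, *S100a8* was 0.0885 ± 0.0288 (SD, n = 4) in CTR papillomas and 0.169, 0.299 and 0.159 in TG 1 to TG 3, so all 3 TG papillomas exceeded the CTR maximum of 0.124. Relative to *Krt5* only TG 1 and TG 2 did, with 0.326 to 0.507 in CTR papillomas and 1.04, 1.97 and 0.422 in TG 1 to TG 3. *Krt14* itself was 4717 FPKM in TG 3, below the 5494 to 7874 FPKM of CTR papillomas, while *S100a8* there lay within its CTR range.

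**Figure D4:**
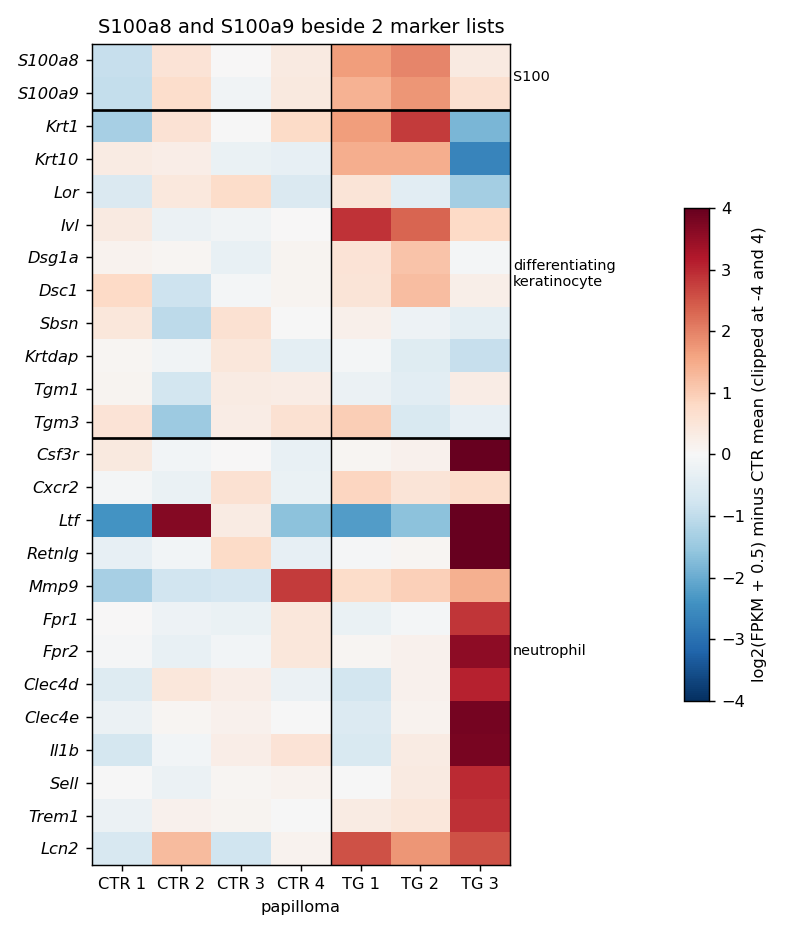
Log2(FPKM + 0.5) minus the CTR mean of each gene (color, clipped at -4 and 4) for S100a8 and S100a9 and every tested gene of the differentiating keratinocyte and neutrophil lists (vertical) in the 7 papillomas (horizontal). TG 1 and TG 2 are high for S100a8, S100a9, Krt1, Krt10 and Ivl, while most neutrophil genes are high in TG 3 alone. The differentiating keratinocyte genes did not move together, with 6 positive and 4 negative TG minus CTR differences.

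Wound keratinocyte genes, among them the keratins of activated epidermis, summed to between 22170 and 26553 FPKM in CTR papillomas and to 33722, 26232 and 19904 FPKM in TG 1 to TG 3. Of these 8 genes, 0 passed the adjusted test. *Sprr2d* was 209.5 to 562 FPKM in CTR and 753 to 961 FPKM in TG papillomas, and *Defb3* was 8.25 to 26.3 FPKM in CTR papillomas and 31.7, 191 and 21.0 FPKM in TG 1 to TG 3. Of the wound keratinocyte genes, 4 of 8 were above the CTR range in both TG 1 and TG 2, against 8.94% of tested genes. Among the 8 differences 6 were positive and 2 negative, with a median of 0.15 against 0.061 over all tested genes. *Defb4* was lower on average, with 248 to 881 FPKM in CTR papillomas and 231, 333 and 295 FPKM in TG 1 to TG 3. The basal keratinocyte list had 0 of 7 genes past the adjusted test. Macrophage genes summed to between 41.2 and 70.5 FPKM in CTR papillomas and to 47.9, 43.8 and 205 FPKM in TG 1 to TG 3, with 9 of 10 measured genes highest in TG 3. Fibroblast genes, a setting in which *S100a4* is often used as a marker, were highest in TG 3 for 11 of 11, yet *S100a4* was 33.0 FPKM there, below the CTR mean. Their part in the values of *S100a4* and *S100a6* was not tested. Hair shaft genes, the setting of *S100a3*, were under 0.5 FPKM outside TG 3 for 10 of 13. Among adipocyte genes 6 of 7, and among Schwann cell genes 6 of 6, were highest in TG 3. T cell genes summed to at most 3.94 FPKM. None of the tested macrophage, fibroblast, muscle, hair shaft, adipocyte, Schwann cell or T cell genes passed the adjusted test, as none of the 12299 did. Only 1 of 8 T cell, 2 of 13 hair shaft, 2 of 7 adipocyte and 3 of 6 Schwann cell genes were tested.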

How the data were processed

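RNA-seq was done on papillomas of 4 CTR and 3 TG mice, grouped by the sample labels. Reads were 40 bases from a single end. Per the submitters' processing notes and methods, the authors mapped them to GRCm38 (mm10) using SAMtools 0.1.16, Bowtie 0.12.7 and TopHat2 2.0.4, and estimated each library with Cufflinks 1.3.0. They deposited the FPKM of each gene with its interval and status. Each file lists 23746 entries. Entries with the same symbol were summed (240 symbols), and 162 symbols with a failed estimate in any papilloma were left out. No scaling between papillomas was added. Read numbers were inferred from the interval widths. Between 66.9% and 68.2% of values under 50 reads came out whole within 0.05, so depths are approximate. Locus starts count from 0 in the files and are printed 1-based.

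FPKM was analysed as log2(FPKM + 0.5), on which a difference understates the change of low genes. Those genes whose mean reached 0.5 FPKM were fitted with limma 3.58.1 (R 4.3.3) with a variance trend, all 7 papillomas and no covariate. P-values were 2-sided and Benjamini-Hochberg adjusted over 12299 genes, at a threshold of 0.05. Cuffdiff, which needs aligned reads, was not used. Exact permutation tests compared group means over 35 splits by the size of the difference. Other steps used Python 3.11.15 (pandas 2.3.3, scipy 1.17.1, numpy 2.4.6, matplotlib 3.10.9). The fit was tested on simulated data.

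The S100 genes, the gene lists (other S100 genes, S100-fused type proteins, partners and receptors, and markers of neutrophils, macrophages, fibroblasts, keratinocyte states, hair shaft, muscle, adipocytes, Schwann cells and T cells) and the tests were chosen with earlier results of these data known. Besides every S100 gene, genes of the lists could be named if among the 4 highest of their list by mean FPKM or at an unadjusted p under 0.05, and only some of these are named, as were the nearest profiles of the S100 genes, of which that for *S100a14* is not reported here. *S100a7l2*, *S100p*, *Flg*, *Ly6g* and *Trac* were not analysed here. *Tlr4*, *Ager*, *Csf3r*, *Trem1*, *Cd177*, *Ngp*, *Camp*, *Elane*, *Mpo*, *Dsg1a*, *Lor*, *Tgm1* and *Defb4* fall outside this rule and were chosen after their values were seen. Alternatives changed the pseudocount (0.1 or 1) or the filter (none, or 2 FPKM), scaled by the upper quartile, normalized by quantiles, or used sample quality weights, no trend, a replicate block, the highest entry of a symbol, values of every status, the libraries of lower depth only, and each papilloma left out in turn.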

Additional observations from a re-analysis of the deposited data

How the results depend on the processing

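*S100a8* and *S100a9* were higher in TG papillomas in all 19 alternatives, and neither passed an adjusted p of 0.05 in any (lowest 0.0513 and 0.0609, highest 0.999 for each, from limma). Their unadjusted p was under 0.05 in 15 and 16 of the 19. *S100a6* and *S100a14* kept a negative difference in all 19. With the sign of the log2 difference turned, *S100a3* was -0.038 and *S100a16* -0.032 under upper-quartile scaling, and *S100a3* was -0.13 under quantile normalization. With sample quality weights *S100a3* was -0.56, *S100a4* -0.20, *S100a10* -0.27 and *S100a16* -0.013. In the libraries of lower depth *S100a3* was -0.014, *S100a4* -0.12, *S100a7a* 0.37 and *S100a16* -0.15. Without TG 3 *S100a3* was -0.19. None of these passed the adjusted test, and the cause was not tested.

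The replicate numbers did not pair the papillomas (correlations of deviations -0.186, 0.0431 and -0.146 for the 3 shared numbers). With the replicate block *S100a8* was 1.45, *S100a9* 1.40 and *S100a16* -0.051, and 0 genes were called.

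With each papilloma left out in turn, *S100a3* ranged from -0.31 to 0.44, *S100a4* from -0.41 to 0.50, *S100a6* from -0.59 to -0.012, *S100a7a* from -0.49 to 0.16, *S100a8* from 1.01 to 1.80, *S100a9* from 0.94 to 1.58, *S100a10* from -0.0019 to 0.56, *S100a11* from -0.26 to 0.040, *S100a14* from -0.46 to -0.072 and *S100a16* from -0.21 to 0.17.

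Over all tested genes 0 were called, with 839 at an unadjusted p under 0.05. Sample quality weights called 85, the libraries of lower depth 1, and leaving out a papilloma 0 to 17 (17 without TG 3, 2 without TG 1, 1 without CTR 3), with 0 S100 genes among them in every alternative. Summed S100 FPKM was higher by 1608 in TG papillomas and moved by less than the spread between papillomas under upper-quartile scaling and with the highest entry.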
